A study of Homo sapiens with 8 samples.

Results

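CDKN1A and 8 further genes known to respond to p53 in stressed cells (MDM2, GADD45A, SESN1, TP53I3, BTG2, FAS, ZMAT3 and TP53INP1) were followed across a RIP-chip experiment with miR-634. CDKN1A was chosen by its input values, which were higher with miR-634, and the other 8 genes were listed to see whether that rise was shared. All values of CDKN1A that hold the input arrays are therefore given as a description, without a test. The 9 genes, out of 22439 gene symbols on the array, had 15 probes. Of these, 7 genes with 10 probes were measured, meaning that every one of the 8 arrays read at least 1 of their probes well above background. This held for 10959 genes in all. ZMAT3 and TP53INP1 were not.

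The experiment used A431, a human cSCC (cutaneous squamous cell carcinoma) cell line. Cells of the miR-NC groups received a control microRNA and cells of the miR-634 groups received miR-634, both by transfection at 10 nM, and lysis followed after 24 h. RNA pulled down with beads carrying an AGO2 antibody formed the RIP groups, and total RNA formed the input groups. Crossing the microRNA with the RNA pool gave 4 groups of 2 one-color arrays each. The study's methods call the input total RNA, whereas the sample labels name a normal rabbit IgG antibody for these arrays. Whether the duplicates came from separate transfections is not given in the sources used here, so that p-values measure the spread between arrays, which may be technical. No untransfected cells were analyzed here.

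p53 is a transcription factor that is stabilized by DNA damage and other stress and that binds DNA as a tetramer, each pair of subunits on a half-site. Its targets stop the cell cycle (CDKN1A, GADD45A, BTG2), limit reactive oxygen and growth signaling (SESN1), promote death (FAS, TP53I3, TP53INP1) or switch p53 off again (MDM2). CDKN1A is also known to be transcribed without p53, through Sp1-family factors at GC boxes near its start. AGO2 is the protein that holds a microRNA and, through it, the mRNAs that pair with the seed of that microRNA.

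The microRNA itself is shown because its seed, bases 2 to 8, in capitals, is the part that selects mRNAs. It is a 22-base RNA encoded on the plus strand at chr17:66787132-66787153 (sequence and position from RefSeq, GRCh38.p14).
hsa-miR-634: aACCAGCAccccaacuuuggac

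Promoter windows in RefSeq, from 250 bases before to 50 bases after a start site, were searched on both strands for the p53 half-site and for the GC box GGGCGG. The p53 half-site was found in 6.63% of 35116 windows and the GC box in 45.0%. Among the members, FAS and SESN1 each had 1 half-site in 1 of 3 windows, and the single CDKN1A window had none and 4 GC boxes. GC boxes were not particular to CDKN1A, with 8, 5 and 1 in the SESN1 windows, 1, 2 and 1 in those of FAS, and 3 in that of BTG2. Stretches of the FAS and SESN1 windows with a half-site and of the CDKN1A window are shown. Whether either motif goes with the input changes was not tested. Capitals mark the half-site in FAS (chr10:88991299-88991328, plus strand) and SESN1 (chr6:109009018-109009047, minus strand), and 2 of the GC boxes in CDKN1A (chr6:36678596-36678625, plus strand).
FAS: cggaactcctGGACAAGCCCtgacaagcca
SESN1: attgtcgtctGGACAAGTCTccacaagtca
CDKN1A: ctgggccccggggaGGGCGGtcccGGGCGG
The half-site began 122 bases before the start site of its own window in FAS and 49 bases before it in SESN1 (positions -122 and -49). GC boxes of CDKN1A began at -104, -94, -45 and -40. The half-site of FAS thus lay farther upstream of its window's start site. All 3 windows shown lie inside the gene's locus. The locus begins at chr10:88964050 for FAS and chr6:36676463 for CDKN1A, and at chr6:109094846 on the minus strand for SESN1. The windows of MDM2, BTG2, TP53I3 and ZMAT3 held no half-site, and that of TP53I3 no GC box. Members without a half-site thus included BTG2, whose input was called higher, and MDM2, TP53I3 and ZMAT3, whose input was not called. A match is a description of the letters, and the well-known distal sites of CDKN1A lie outside this window. GADD45A and TP53INP1 have no entry in the promoter table.

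Levels below are log2 intensities minus the 75th percentile of the same array, so that a negative level lies below that percentile, and they compare arrays for 1 probe rather than probes with each other. The share of spots well above background was 45.6% to 45.8% on the input arrays, 33.6% and 34.5% after RIP from miR-NC cells, and 40.0% on both arrays of RIP from miR-634 cells. The median SD between duplicates was 0.04 in both input groups and 0.06 in both RIP groups. All 10 markers of A431 identity fixed for the check, among them EGFR and TP63, were measured. Their input was called higher for 5, DSP (0.32) and EGFR (0.32) among them, and lower for CDH1, the epithelial cadherin, by -1.02 (limma adjusted p = 0.000223), with a median of 0.20. Over all 10959 genes 11.6% were called higher in the input and 12.1% lower. Under spike-in scaling 0 of the markers were called higher, against 25 of all genes, and CDH1 was at -1.24. Of 11 markers of leukocytes, fibroblasts, endothelium and melanocytes, 1 was measured (CDH5, of endothelium) and 5 were well above background on no array. PMEL, of melanocytes, was well above background on all 4 input arrays but not on all arrays. RNA spiked in during labeling stood 0.88 to 1.36 above the percentile on input arrays, 3.44 and 3.53 after RIP from miR-NC cells, and 2.60 and 2.64 after RIP from miR-634 cells. Scaling to these spikes instead moved the median RIP change of all genes from -0.18 to 0.68, and the median input change from -0.01 to -0.23. RIP changes are therefore also given relative to the median of all genes, which is the same under both scalings.

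CDKN1A encodes p21, the inhibitor of cyclin-dependent kinases that halts the cell cycle. Its input level was -6.37 and -5.74 in miR-NC cells and -4.85 and -4.68 in miR-634 cells. Both miR-634 input arrays were above both miR-NC input arrays. The difference was 1.29 on the log2 scale (SE 0.19, n = 2 arrays per group), or 2.44-fold. It was the second-largest rise of 10959 genes, in the values that chose CDKN1A. By array number it was 1.52 and 1.06. The probe was dim, with input intensities of 35.1 and 53.7 in miR-NC cells and 102 and 104 in miR-634 cells, where the lowest signal well above background on an array was 16.5 to 20.8. With normexp background correction and quantile normalization the input change was 0.49, below that of BTG2 in the same setting (0.54). Without 1 or the other miR-NC input array the CDKN1A input change was 0.97 or 1.60.

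In the RIP, CDKN1A was at -3.89 and -3.77 in miR-NC cells and at -3.94 and -4.03 in miR-634 cells. The miR-634 arrays were just below the miR-NC arrays, by -0.15 (SE 0.19, 95% interval -0.62 to 0.32, limma adjusted p = 0.499), whereas spike-in scaling gave 0.71 (adjusted p = 0.000848). The SE pools the spread of all groups, so it takes in the input arrays that chose CDKN1A. The miR-NC input pair had an SD of 0.45, against 0.09 and 0.07 for the miR-NC and miR-634 RIP pairs. The interval and p-values therefore do not measure the spread of the RIP arrays alone. Relative to the median of all genes the RIP change was 0.03. Enrichment, the log2 RIP/input, stood at 2.22 with miR-NC and at 0.78 with miR-634, and the fold change of enrichment was -1.44 on the log2 scale (SE 0.27), against -0.35 under spike-in scaling and -0.42 with normexp and quantile normalization.

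**Figure D1:**
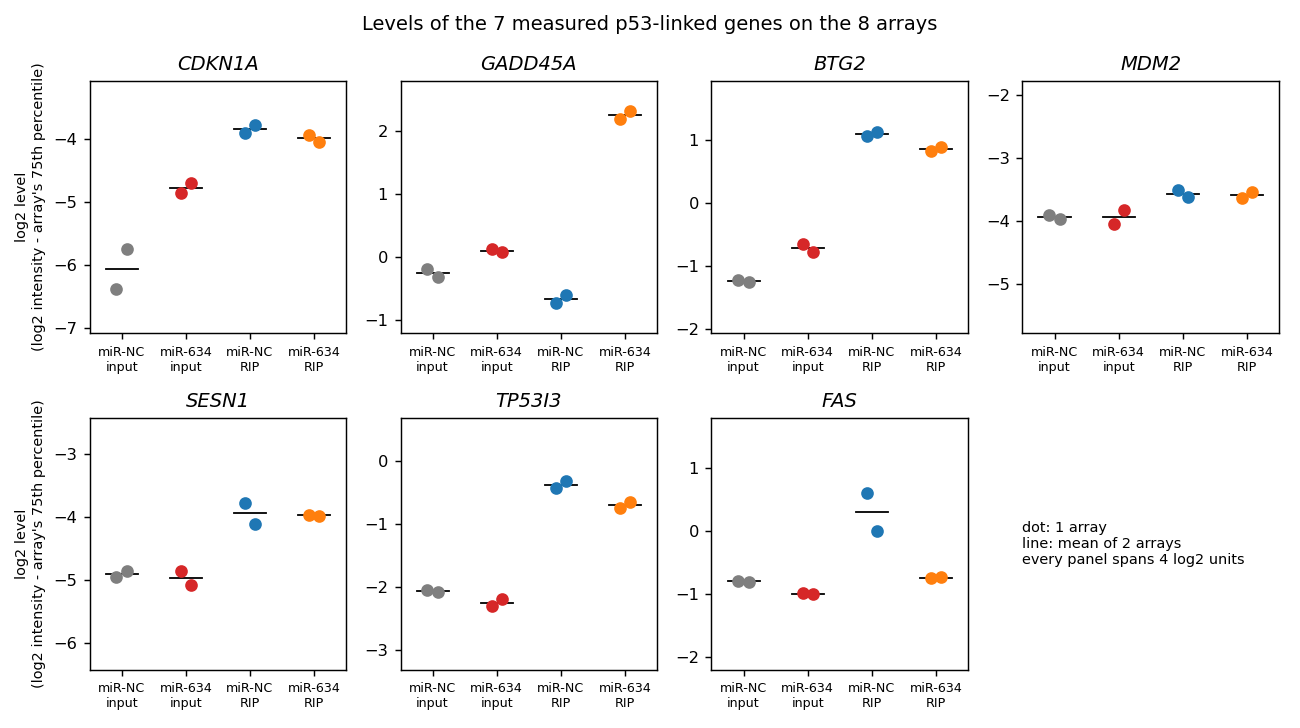
Level of each of the 7 measured genes on every array, as the log2 intensity after subtracting the 75th percentile of its array (vertical axis), by group (horizontal axis). Dots are arrays and lines are means of 2 arrays. CDKN1A is higher in the miR-634 input than in the miR-NC input and close between the RIP groups, GADD45A stands out in the miR-634 RIP, and MDM2 and SESN1 overlap between cells in both pools.

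Of the 6 other measured genes, 2 passed the test for a higher input level with miR-634 (GADD45A and BTG2) and 0 for a lower one. Of all 10959 genes tested, 23.7% were called, 11.6% higher and 12.1% lower. A count of 2 among 6 genes picked with results known is read here only as a description. Neither rise was called under spike-in scaling.

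BTG2, an antiproliferative gene that binds mRNA deadenylases, had input levels of -1.21 and -1.24 in miR-NC cells and -0.65 and -0.78 in miR-634 cells. The groups did not overlap, and the rise was 0.51 (SE 0.06, 1.43-fold, limma adjusted p = 0.00271). Overlap was not counted over all genes, so here and below it only describes the arrays. Spike-in scaling gave 0.29 (adjusted p = 0.387).

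GADD45A, which acts in growth arrest, DNA repair and stress kinase signaling, had input levels of -0.20 and -0.32 in miR-NC cells and 0.12 and 0.07 in miR-634 cells. These did not overlap either, and the rise was 0.35 (SE 0.08, 1.28-fold, limma adjusted p = 0.0200). It was small, and the call was lost without any 1 of the 4 input arrays, with adjusted p from 0.0564 to 0.113.

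For the p53 feedback and for redox control, the probes read on all arrays overlapped between the input groups. MDM2, the ubiquitin ligase that degrades p53, was at -3.90 and -3.97 in miR-NC input and at -4.06 and -3.82 in miR-634 input, which overlap. Its input change was -0.00 (95% interval -0.22 to 0.21, limma adjusted p = 0.977). SESN1, a stress-induced inhibitor of mTORC1 signaling, was at -4.95 and -4.85 against -4.85 and -5.07, with an input change of -0.06 (95% interval -0.36 to 0.24, adjusted p = 0.755). MDM2 had 2 dimmer probes that were well above background on the 4 input arrays but not on all RIP arrays, and the 3 probes differed. The dimmest was at -6.60 and -6.82 in miR-NC input and at -5.62 and -6.33 in miR-634 input, which do not overlap. Its input change was 0.74 (95% interval 0.14 to 1.34, limma adjusted p = 0.141 over 23569 probes well above background on the input arrays), and that of the other was -0.12 (adjusted p = 0.828).

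TP53I3 and FAS had lower input values that did not pass the test. TP53I3, a quinone oxidoreductase that raises reactive oxygen, was at -2.05 and -2.08 in miR-NC input and at -2.31 and -2.20 in miR-634 input. The groups did not overlap, but the change of -0.19 did not pass the test (limma adjusted p = 0.0906). FAS, the receptor for FAS ligand, was at -0.80 and -0.82 against -0.99 and -1.01, a change of -0.20 (95% interval -0.61 to 0.22, adjusted p = 0.455). Its groups did not overlap either. The fit takes 1 spread per gene over all groups, and for FAS the miR-NC RIP pair had an SD of 0.42. The input pairs had SDs of 0.02 (miR-NC) and 0.01 (miR-634), so the interval and the p-value do not measure the spread of the input arrays alone. The other FAS probes had input changes of -0.21 and -0.14, neither past the threshold.

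ZMAT3, an RNA-binding target of p53, was well above background on the 4 input arrays and on no RIP array. Its input levels of -5.74 and -5.84 in miR-NC cells and -5.70 and -6.22 in miR-634 cells overlapped. In the fit on genes well above background in all input arrays, the ZMAT3 input change was -0.17 (95% interval -0.62 to 0.28, limma adjusted p = 0.602). In miR-634 cells its level was at least 1.29-fold higher in the input than in the RIP. TP53INP1, which takes part in p53-driven death and autophagy, had 2 probes, well above background on 3 and 0 arrays, and no fold is given. The brighter of them was at -7.00 and -6.74 in miR-NC input, where 1 array read it well above background, and at -6.35 and -6.56 in miR-634 input.

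**Figure D2:**
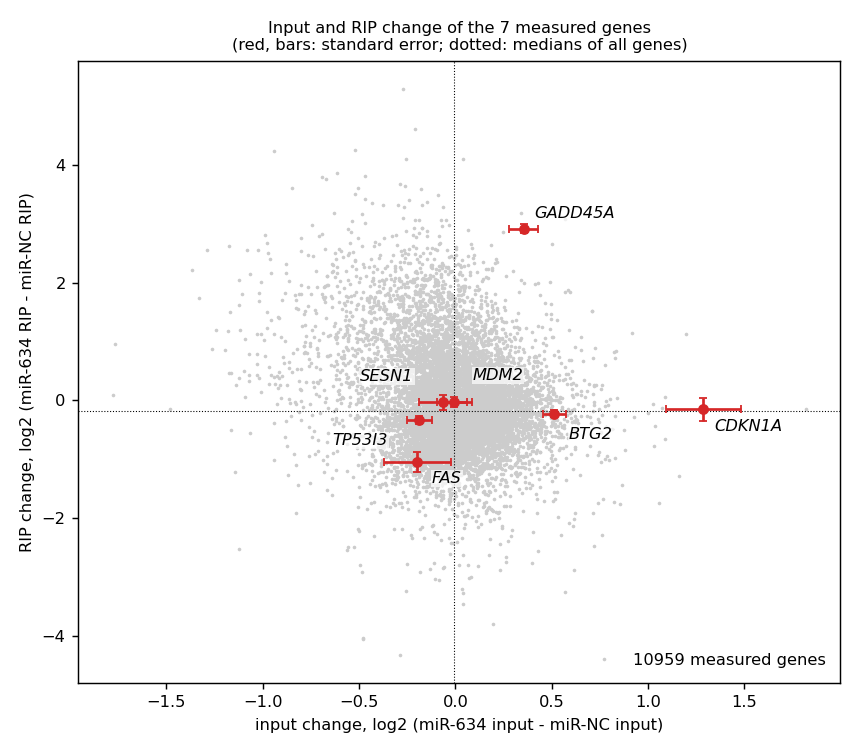
Input change (horizontal axis, log2 of miR-634 input over miR-NC input) and RIP change (vertical axis, log2 of miR-634 RIP over miR-NC RIP). Gray points are the 10959 measured genes, red points the 7 measured p53-linked genes with standard errors, and dotted lines the medians of all genes. CDKN1A lies far to the right at a RIP change of -0.15, and GADD45A lies near the top at 2.92.

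In the RIP, 4 of the 7 measured genes were called changed, 1 higher (GADD45A) and 3 lower (FAS, TP53I3 and BTG2), while under spike-in scaling 6 were called higher and 0 lower. Among all genes 77.4% were called on the percentile scale, 30.9% higher and 46.5% lower. Spike-in scaling called 7260 of 10959 genes higher and 356 lower. A call in the RIP was therefore common under both scalings. GADD45A had the highest RIP change of the members under every scaling run. It was at -0.74 and -0.60 in the miR-NC RIP and at 2.19 and 2.32 in the miR-634 RIP. Its RIP change of 2.92 (SE 0.08, 7.57-fold, limma adjusted p = 3.94e-07) ranked 44 of all genes from the top and was 3.78 under spike-in scaling. Relative to the median of all genes it was 3.10.

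FAS was at 0.59 and -0.00 in the miR-NC RIP and at -0.75 and -0.74 in the miR-634 RIP. The miR-NC arrays differed from each other, and both were above the miR-634 arrays. The RIP change was -1.04 (SE 0.17, limma adjusted p = 0.00141) and -0.86 relative to the median of all genes, and under spike-in scaling it was -0.18 (adjusted p = 0.434). The other FAS probes gave RIP changes of -0.69 and -0.84, so that all 3 probes had the same sign.

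TP53I3 was at -0.43 and -0.32 in the miR-NC RIP and at -0.76 and -0.66 in the miR-634 RIP, a change of -0.33 (SE 0.07, limma adjusted p = 0.00361) that turned to 0.54 under spike-in scaling. BTG2 was at 1.06 and 1.12 against 0.83 and 0.90, a change of -0.23 (SE 0.06, adjusted p = 0.0118) that turned to 0.64 under spike-in scaling. For neither gene was the RIP change called with the percentile taken over all probes (adjusted p = 0.160 and 0.587), and that of BTG2 was also lost without miR-NC RIP replicate 2 (adjusted p = 0.0528) or miR-634 RIP replicate 1 (adjusted p = 0.0550). The dimmer TP53I3 probe gave a RIP change of -0.38 and an input change of -0.28. Relative to the median of all genes the changes of TP53I3 and BTG2 were -0.15 and -0.05.

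MDM2 and SESN1 overlapped between cells in the RIP too. MDM2 was at -3.50 and -3.63 in miR-NC cells and at -3.64 and -3.55 in miR-634 cells, and SESN1 at -3.77 and -4.11 against -3.97 and -3.98. Their RIP changes were both -0.03 (limma adjusted p = 0.781 and 0.827), which turned to 0.84 and 0.83 under spike-in scaling. A second MDM2 probe was not well above background on the miR-NC RIP arrays, and in miR-NC cells its input was at least 1.31-fold over the RIP. The third MDM2 probe was read on no RIP array.

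**Figure D3:**
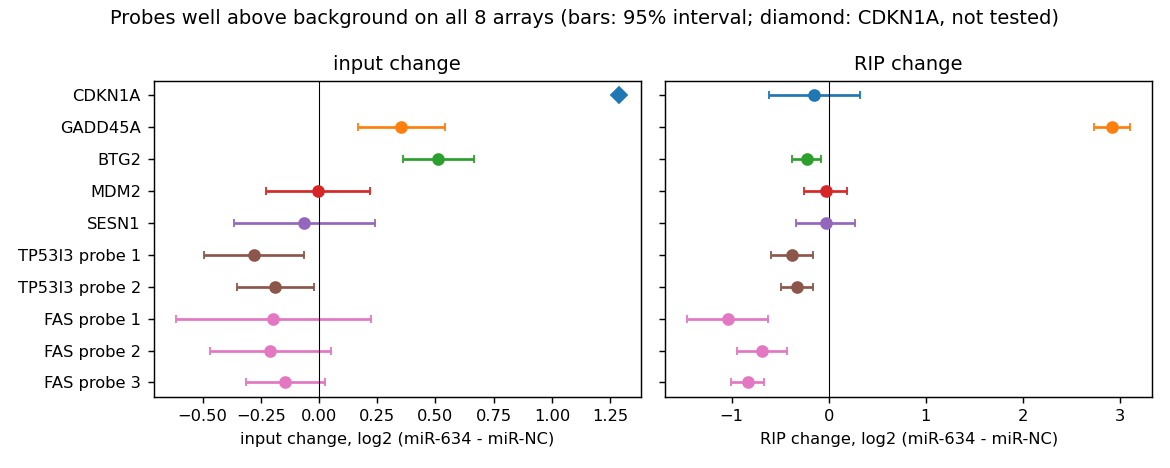
Input change (left) and RIP change (right) of each of the 10 probes well above background on all 8 arrays, in log2 of miR-634 over miR-NC on the horizontal axes. Bars are 95% intervals, and the diamond is the CDKN1A input change, given without a test. The 3 FAS probes lie at -0.69 to -1.04 in the RIP, and the GADD45A probe at 2.92.

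Enrichment combines both pools. In miR-NC cells 5 of the 6 measured genes other than CDKN1A were called enriched in the RIP (BTG2, TP53I3, FAS, SESN1 and MDM2) and 1 depleted (GADD45A), where 78.8% of all genes were called, 33.5% enriched and 45.3% depleted. In miR-634 cells 5 were called enriched (GADD45A, BTG2, TP53I3, SESN1 and MDM2) and 0 depleted, against 36.1% and 48.3% of all genes, or 84.4% in either direction. The count for MDM2 rests on the probe read on all arrays. Of its other probes, 1 was well above background in both miR-634 groups and was lower there in the RIP (mean -5.64) than in the input (mean -4.96). The dimmest probe was read on no RIP array, and in miR-634 cells its input was at least 1.28-fold over the RIP. The enriched and depleted calls are those of the percentile scale. Under spike-in scaling all 7 measured genes were below 0 with miR-NC, and CDKN1A, MDM2, SESN1 and FAS were below 0 with miR-634. That was common, since this scaling called 10749 of 10959 genes lower in the RIP than in the input with miR-NC (median -2.69). With miR-634 it called 9215 lower (median -1.65).

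GADD45A turned from a log2 RIP/input of -0.41 in miR-NC cells to 2.16 in miR-634 cells. Its fold change of enrichment was 5.92 (log2 2.57, SE 0.11, limma adjusted p = 4.17e-06), by array number 6.09 and 5.76, ranking 176 among all genes. Both pools were higher with miR-634, the RIP by far the more. BTG2 went from 2.32 to 1.58, a change of -0.74 (SE 0.09, adjusted p = 0.000328), in which the input rose and the RIP did not, and spike-in scaling gave 0.35.

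FAS went from 1.10 to 0.26, a change of -0.84 (SE 0.24, limma adjusted p = 0.0191). Its sign turned to 0.25 under spike-in scaling, and without miR-NC input replicate 2, either miR-634 input array or miR-634 RIP replicate 1 the adjusted p lay between 0.0508 and 0.0568. TP53I3 went from 1.69 to 1.55 (adjusted p = 0.214), MDM2 from 0.37 to 0.35 (adjusted p = 0.874) and SESN1 from 0.96 to 0.99 (adjusted p = 0.880). So 3 of the 6 genes were called in the fold change of enrichment, 1 higher and 2 lower, where 71.3% of all genes were called, 28.1% higher and 43.2% lower.

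**Figure D4:**
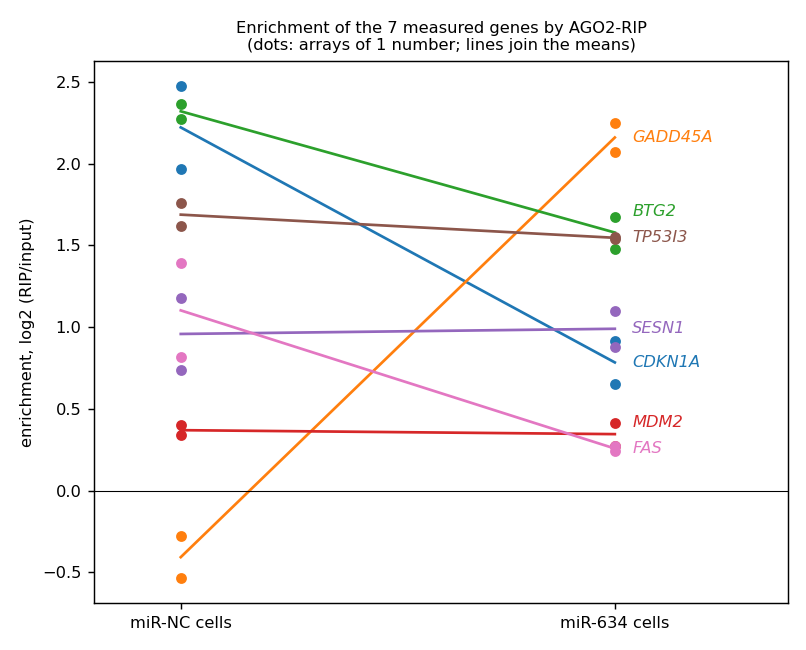
Enrichment (vertical axis, log2 RIP/input on the percentile scale) of the 7 measured genes by cell. Dots are the ratios of arrays with 1 number, and lines join the means. GADD45A crosses from -0.41 to 2.16, CDKN1A goes from 2.22 to 0.78, and MDM2, SESN1 and TP53I3 run nearly level.

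The genes whose pattern over the 8 arrays was most like that of CDKN1A, by the root-mean-square difference of centered log2 levels among 10958 genes, were SLC45A4 (0.254), OVOL1 (0.263), CCNJ (0.279), JAZF1 (0.300) and GRHL3 (0.311). Their input changes ran from 0.74 to 1.02. BTG2 was the nearest member at rank 27 (0.401), followed by TP53I3 at 442, SESN1 at 607, MDM2 at 2189, FAS at 2435 and GADD45A at 7920. The distance takes in the RIP arrays and the input arrays that chose CDKN1A. These ranks are therefore a description and do not show which members shared its input rise. TP53I3 ranked nearer than GADD45A, with input changes of -0.19 and 0.35.

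Wider lists of the pathway were set beside the members by counts. For every list here and below, the shares to compare are those over all 10959 genes in the input, 11.6% higher and 12.1% lower. Spike-in scaling called 25 of all genes higher and 761 lower in the input. Of 43 other p53 target genes 37 were measured, and their input was called higher for 8 and lower for 8, with a median input change of 0.04. Under spike-in scaling 0 were called higher and 6 lower. GDF15, a stress-induced cytokine, rose by 0.57 in the input (limma adjusted p = 0.000806) and by 3.08 in the RIP (adjusted p = 1.28e-07), a pair of changes like those of GADD45A. PLK3, a stress-responsive kinase, rose by 0.60 and TNFRSF10A, a death receptor for TRAIL, by 0.53. BLOC1S2 fell by 1.17, FBXW7, which marks cyclin E and MYC for degradation, fell by 0.80, and THBS1, an extracellular matrix protein, fell by 0.63. Of these 6 genes BLOC1S2 had the largest RIP change after GDF15, at 2.63.

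The p53 family and its regulators had 14 of 20 genes measured, with 3 called higher and 0 lower in the input and a median of 0.09. The genes called were PPP1R13B (0.41), PPP1R13L (0.23) and TP63 (0.39, limma adjusted p = 0.0378), and under spike-in scaling 0 were called. PPP1R13B and PPP1R13L encode p53-binding proteins, and TP63 encodes the p53 relative that maintains squamous cells. MDM4, a partner of MDM2, had an input change of -0.04 (adjusted p = 0.898).

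Among 6 measured CDK inhibitors of 7 listed other than CDKN1A, 1 was called higher and 1 lower in the input, with a median of -0.10. CDKN1B (p27) rose by 0.61 in the input (limma adjusted p = 0.00392) and fell by 1.16 in the RIP, so that its enrichment went from 3.75 to 1.98. CDKN1C (p57) fell by 0.51 in the input. CDKN2A, CDKN2C, CDKN2D and CDKN3 had input changes of -0.14, -0.02, -0.06 and -0.17, none past the threshold, and CDKN2D had a RIP change of 1.99. Of 16 paralogs of the members 11 were measured, 3 called higher (CDKN1B, BTG3 at 0.32 and SESN2 at 0.25) and 1 lower (CDKN1C), with a median of 0.11. The input rise of CDKN1B, BTG3 and SESN2 was not called under spike-in scaling.

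Factors known to act at the CDKN1A promoter had 23 of 28 genes measured, with 4 called higher and 3 lower in the input and a median of 0.07, and 0 and 2 under spike-in scaling. Besides TP63, ZBTB17 rose by 0.32 and RUNX1 by 0.24, and SP3, one of the Sp-family factors that bind GC boxes, fell by 0.62 (limma adjusted p = 0.00419), SMAD4 by 0.62 and STAT3 by 0.36. In the RIP, SP3 rose by 2.09 (adjusted p = 1.91e-06).

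The kinases and cyclins that p21 binds, with PCNA, had 11 of 12 genes measured, 3 called higher and 0 lower in the input, and 0 in either direction under spike-in scaling. CCND3 rose by 0.60 in the input (limma adjusted p = 0.000816), with a RIP change of -0.91, and CCNE1 and CDK2 rose by 0.29 and 0.20. Cell-cycle genes that the DREAM complex represses downstream of p21 had 45 of 46 genes measured, 5 called higher and 5 lower in the input, with a median of -0.02, and 0 and 3 under spike-in scaling. KIF23 (0.25), CENPE (0.19) and FOXM1 (0.18) were among those called higher. CKS1B fell by 1.02, CDC25A by 0.68 and RRM2 by 0.57, and CKS1B had a RIP change of 2.56.

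**Figure D5:**
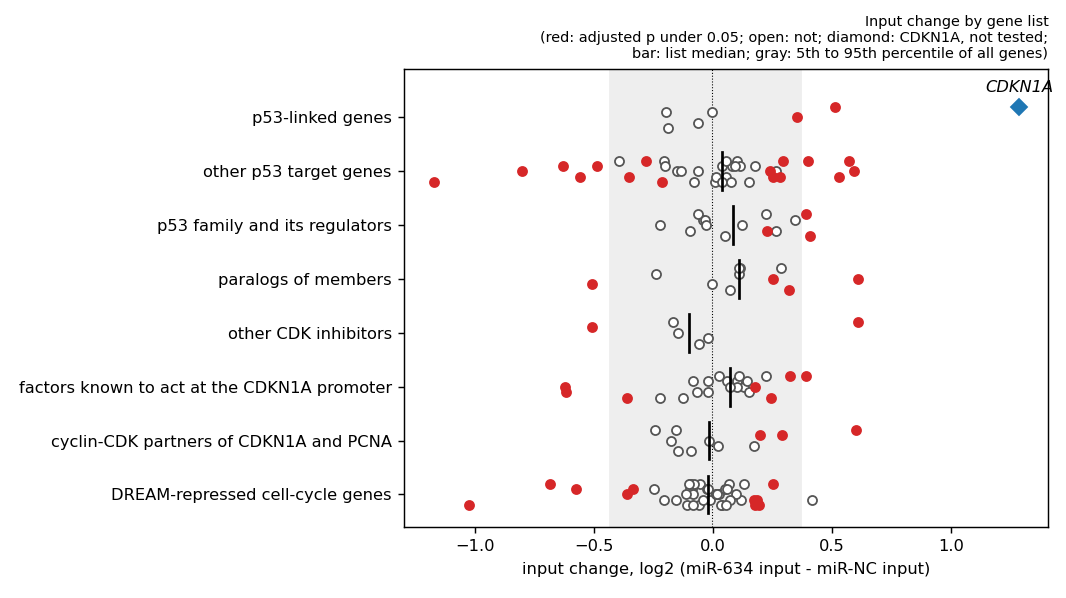
Input change (horizontal axis, log2 of miR-634 input over miR-NC input) of the measured genes of 8 lists (vertical axis), marker lists left out. Red dots passed the threshold, open dots did not, the diamond is CDKN1A, black bars are list medians, and the gray band spans the 5th to 95th percentile of all genes. CDKN1A, picked for this value, lies at 1.29, to the right of every other listed gene on the percentile scale. The medians of the lists drawn lie between -0.10 and 0.11.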

How the data were processed

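RNA of 8 samples was hybridized to one-color Agilent 8 × 60K arrays. The authors deposited the scanner intensity of each spot, corrected inside each array for background and spatial trend but not normalized between arrays, and GeneSpring log2 values, whose settings are not given in the sources used here. The submitters' processing notes name Agilent Feature Extraction 9.1, whereas the scanner files' own headers name a later version. The GeneSpring log2 values, deposited by the authors, correlated at 0.99994 or more with log2 intensities shifted by the 75th percentile over all probes and centered per probe, and served as an alternative.

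Control and outlier spots were left out and the spots of a probe averaged. All 8 arrays read 16808 of 58201 probes (28.9%) well above background, and the 75th percentile of these was subtracted from each array. A RefSeq accession was listed for 33080 probes, and a symbol was found for 31104 of them (RefSeq, GRCh38.p14). The brightest such probe stood for a gene. Group means were fitted over 10959 genes with limma 3.58.1 (R 4.3.3), with Benjamini-Hochberg adjustment over all genes, two-sided, at a threshold of 0.05. The fold change of enrichment is the difference of log2 RIP/input, miR-634 less miR-NC.

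A bound written "at least" sets the bright group's mean against, on each dim array, the higher of the lowest signal well above background and the probe's own. Named genes are the 9 members, up to 3 rises and 3 falls of input per list among genes past the threshold, TP63 and MDM4, the measured CDK inhibitors, and the 5 genes most like CDKN1A. Another gene that the rule covers is not reported here. The members and lists were chosen with earlier results of these data known. TP73 was not measured on all arrays.

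Alternatives were normexp (offset 50, on median signals) with quantile normalization, quantile normalization, the authors' values, median, all-probe percentile and spike-in scaling (8 spike probes), other filters, probe means, a replicate block, a trend on intensity, each array left out and the methods' t-test. All arrays lay on 1 slide in 1 scan, so no slide block was fitted. Each RNA pool had its own row and each microRNA its own columns, so that position and group cannot be told apart. The number of arrays limits the precision. The scripts were tested on simulated data, and plots used Python 3.11.15, pandas 2.3.3 and matplotlib 3.10.9.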

Additional observations from a re-analysis of the deposited data

Results flagged for a closer look

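BTG2 had changes of opposite sign in the input and in the RIP on the percentile scale. Its input level was higher in miR-634 cells on both arrays (0.51) and its RIP level lower on both (-0.23), and the difference between these changes, the fold change of enrichment, was -0.74 on the log2 scale (limma adjusted p = 0.000328). Relative to the median of all genes the RIP change was -0.05, and with the percentile over all probes it was -0.06 (limma adjusted p = 0.587). It was also not called with the authors' values or without miR-NC RIP replicate 2 or miR-634 RIP replicate 1. Under spike-in scaling the RIP change was 0.64 and the difference 0.35.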

How the results depend on the processing

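The direction of RIP changes and the number of input calls turned with the scaling of the arrays. The cause was not tested. Spike-in scaling gave RIP changes of 0.71 for CDKN1A, 0.84 for MDM2, 0.83 for SESN1, 0.54 for TP53I3 and 0.64 for BTG2. It gave changes of enrichment of 1.07 for MDM2, 0.95 for TP53I3, 0.35 for BTG2 and 0.25 for FAS. In miR-NC cells it gave RIP/input of -0.35 for CDKN1A, -2.20 for MDM2, -1.61 for SESN1, -0.88 for TP53I3, -0.25 for BTG2 and -1.46 for FAS, and in miR-634 cells -0.69 for CDKN1A, -1.13 for MDM2, -0.49 for SESN1 and -1.22 for FAS.

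Genes called in the input numbered 2602 (1273 higher, 1329 lower), 1728 with the percentile over all probes (1070 and 658), 786 with spike-in scaling (25 and 761), 940 with no filter, 404 by the methods' t-test after Benjamini-Hochberg (3774 at their threshold), and 943 to 2888 without 1 array. Members called, other than CDKN1A, were 2, but 0 with spike-in scaling or by the t-test after adjustment, 1 with no filter, and 1 to 3 without 1 array. In the RIP 8483 genes were called (3385 higher, 5098 lower), 14254 with no filter, 5503 by the t-test, and 8095 to 8277 without 1 array, split 7260 and 356 with spike-in scaling and 4048 and 3712 with the percentile over all probes. Members called in the RIP were 4, but 2 with the authors' values or the percentile over all probes, 1 by the t-test after adjustment and 3 to 4 without 1 array. For the change of enrichment 7809 genes were called (3079 and 4730), 11950 with no filter and 7076 to 7844 without 1 array, split 7220 and 179 with spike-in scaling, and members called were 3, and 2 by the t-test after adjustment or 2 to 3 without 1 array.

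Arrays of 1 replicate number shared little variation, since deviations from group means correlated at -0.04 to 0.08 between groups. The highest values were those of input with RIP of the same cells (0.07 for miR-NC, 0.08 for miR-634). This does not show whether arrays of 1 number came from the same lysate. With a replicate block 2261 genes were called in the input, 8456 in the RIP and 7801 for enrichment, and no member's call changed. The CDKN1A probe was dim, and its values moved with the processing. Under normexp with quantile normalization the input change was 0.49 and the change of enrichment -0.42. Quantile normalization without normexp gave 1.36 and -1.35. The normexp setting also added an offset and used median signals, so the share of the background correction itself was not tested. Under spike-in scaling the change of enrichment was -0.35.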
